A study of Mus musculus with 16 samples.

Results

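Red gastrocnemius muscle was compared with visceral fat of the same animal in 8 female mice, across every gene counted. Members were all 16 libraries of the series, 8 of muscle and 8 of fat, joined into 8 pairs by the number in the subject label, with genotypes pooled. Mice 131, 137, 138 and 11 were Cre-controls and mice 139, 958, 960 and 29 had MyD88 deleted in muscle. MyD88 is the adaptor of most Toll-like receptors and of the interleukin-1 receptor. Every mouse had 5 weeks of wheel running and after that 8 days of confinement to a small cage that restricts movement, so no library came from an untrained or unconfined mouse. Age, Cre driver and fat depot were not given in the sources used here. Of 55536 genes in the deposited table, 15593 passed the filter on low counts and were tested. Total counts were 15203806 to 21747345 per muscle library and 13242243 to 19114782 per fat library.

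Skeletal muscle fibres hold ordered arrays of actin and myosin filaments, fed with calcium from the sarcoplasmic reticulum and with ATP from creatine phosphate, glycogen and mitochondria. White adipocytes hold a single large lipid droplet, make fatty acids and triglyceride after feeding, release them by lipolysis, and secrete hormones such as leptin and adiponectin. Both tissues take up glucose through the same insulin-sensitive transporter. Both also contain vessels, fibroblasts and immune cells, and visceral fat is covered by mesothelium.

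The marker genes set the tissues apart in every mouse. Muscle creatine kinase, Ckm (ENSMUSG00000030399, chromosome 7, 19404776 to 19422841, GRCm38), which regenerates ATP from creatine phosphate, ranged over 16048 to 24304 CPM in muscle (median 19986) and 25.8 to 240 CPM in fat (median 102). Skeletal actin, Acta1 (ENSMUSG00000031972, chromosome 8, 123891769 to 123894751), the main thin-filament protein, ranged over 22433 to 31486 CPM in muscle (median 28398) and 72.9 to 449 CPM in fat (median 182). Adiponectin, Adipoq (ENSMUSG00000022878, chromosome 16, 23146536 to 23158028), a hormone of fat cells, ranged over 3.36 to 36.7 CPM in muscle (median 9.18) and 329 to 2426 CPM in fat (median 2074). Perilipin 1, Plin1 (ENSMUSG00000030546, chromosome 7, 79720218 to 79732903), which coats the lipid droplet and gates lipolysis, ranged over 1.79 to 17.4 CPM in muscle (median 4.65) and 169 to 1232 CPM in fat (median 1058). For these 4 genes the tissues did not overlap, and the lowest fat value of Adipoq and of Plin1 was that of mouse 138. The log2 differences, muscle minus fat, were 7.65 (SE 0.35) for Ckm, 7.06 (SE 0.30) for Acta1, -7.41 (SE 0.47) for Adipoq and -7.29 (SE 0.42) for Plin1. P-values measure the spread between these 8 mice. The edgeR adjusted p were 7.4e-08, 3.57e-08, 1.07e-06 and 4.13e-07. CPM are counts scaled to 1000000 per library and then by its TMM factor, so that CPM of a muscle library sum to more than 1000000 and those of a fat library to less. All differences below are log2 values of muscle minus fat from 1 paired fit, so that a positive value is higher in muscle.

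**Figure D1:**
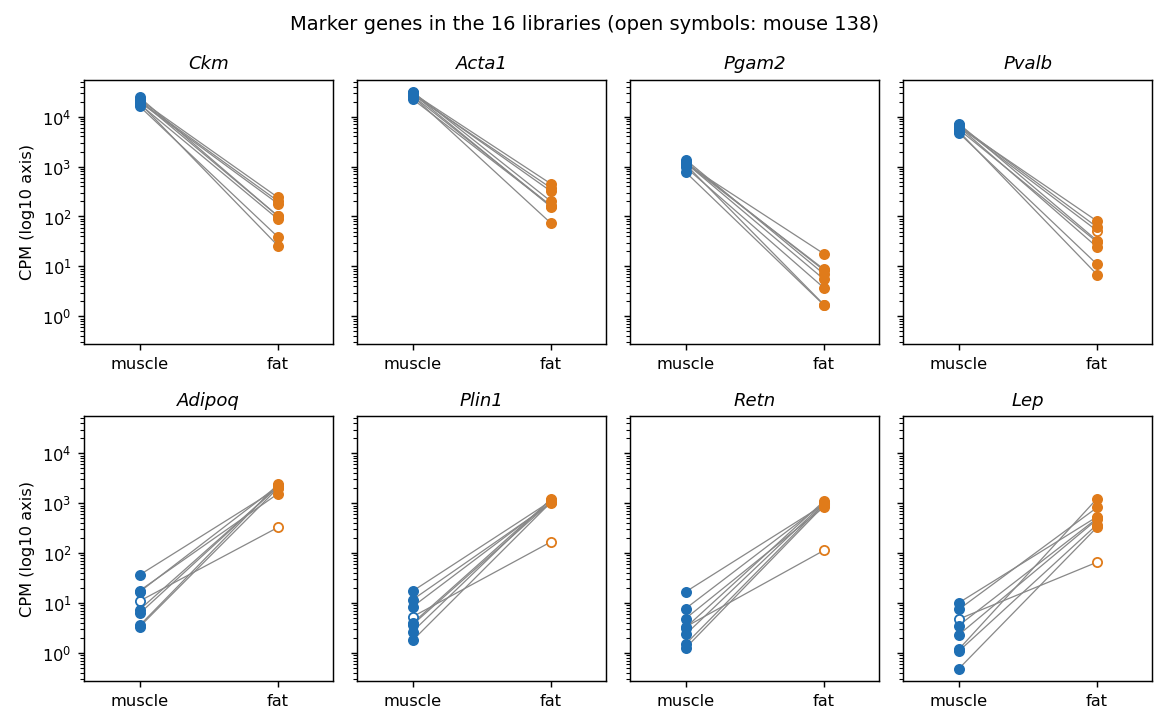
CPM of 8 marker genes in each of the 16 libraries, on a log10 axis, with muscle and fat side by side and a line joining both libraries of a mouse. The 4 muscle genes lie higher in muscle and the 4 fat genes higher in fat in all 8 mice. The open symbols are mouse 138, whose fat holds the lowest Adipoq, at 329 CPM.

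Promoters of the markers are shown, with those of 2 muscle genes described below that hold both of the motifs marked. Each is the 250 bases before the RefSeq start of the gene (build GRCm38.p6), 5′ to 3′ on the strand of the gene. Capitals mark the E-box CAGCTG, a site that myogenic factors of the MyoD family can bind, and the MEF2-type motif, CTA and TAG with any 4 bases between them, on either strand. The motifs do not overlap in these sequences, and the Plin1 window holds neither. For Ckm this window lies inside the gene as GENCODE draws it, and for Plin1 127 of the 250 bases do.
Ckm, chr7:19410844-19411093, plus strand: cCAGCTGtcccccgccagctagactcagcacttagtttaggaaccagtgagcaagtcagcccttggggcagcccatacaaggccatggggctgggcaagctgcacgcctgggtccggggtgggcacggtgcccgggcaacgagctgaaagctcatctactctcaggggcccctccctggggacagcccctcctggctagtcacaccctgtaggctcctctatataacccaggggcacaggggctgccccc
Acta1, chr8:123894776-123895025, minus strand: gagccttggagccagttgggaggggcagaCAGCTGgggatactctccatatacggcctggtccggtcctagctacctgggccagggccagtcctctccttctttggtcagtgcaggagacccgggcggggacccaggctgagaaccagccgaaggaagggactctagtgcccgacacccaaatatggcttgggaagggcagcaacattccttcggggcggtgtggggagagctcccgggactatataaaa
Ppp1r3a, chr6:14755275-14755524, minus strand: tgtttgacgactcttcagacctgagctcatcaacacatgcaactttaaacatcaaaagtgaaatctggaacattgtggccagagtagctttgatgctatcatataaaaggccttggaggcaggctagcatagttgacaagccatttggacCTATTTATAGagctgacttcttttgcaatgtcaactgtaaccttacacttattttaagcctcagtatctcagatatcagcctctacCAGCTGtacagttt
Phka1, chrX:102644247-102644496, minus strand: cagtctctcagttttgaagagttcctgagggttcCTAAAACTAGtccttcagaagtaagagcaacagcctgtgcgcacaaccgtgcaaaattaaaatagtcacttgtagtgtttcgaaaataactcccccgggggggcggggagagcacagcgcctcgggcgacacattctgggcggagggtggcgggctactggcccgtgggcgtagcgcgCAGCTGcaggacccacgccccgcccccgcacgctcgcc
Adipoq, chr16:23146286-23146535, plus strand: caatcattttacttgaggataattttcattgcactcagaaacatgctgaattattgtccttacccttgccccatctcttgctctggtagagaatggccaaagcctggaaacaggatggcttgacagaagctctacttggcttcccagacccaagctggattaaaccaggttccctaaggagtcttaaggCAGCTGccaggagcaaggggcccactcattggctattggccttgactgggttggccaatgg
Plin1, chr7:79732777-79733026, minus strand: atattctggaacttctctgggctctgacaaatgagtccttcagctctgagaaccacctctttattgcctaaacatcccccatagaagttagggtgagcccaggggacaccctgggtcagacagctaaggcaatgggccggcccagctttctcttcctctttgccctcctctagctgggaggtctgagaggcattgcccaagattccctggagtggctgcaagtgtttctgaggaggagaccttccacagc

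The label "red" was read against the myosin heavy chains, of which each fibre type uses its own. Levels were compared per kilobase of exon. Myh4, the heavy chain of the fastest, glycolytic fibres, made up 84.1 ± 3.49% of the summed level of the 4 adult limb chains in muscle (SD, n = 8; 78.1 to 88.2%). Myh1, of fast fibres with more mitochondria, made up 10.2 ± 2.26%, and Myh2, of fast oxidative fibres, 4.24 ± 1.38%. Myh7, the slow chain, made up 1.39 ± 0.509%. The red part of a muscle is named for its oxidative fibres, whose chains Myh2 and Myh7 were the 2 lowest of the 4 in these libraries. Chains that similar can share reads, whose treatment in the counting was not given in the sources used here. The visceral label was read against mesothelial genes: all 12 of the list were higher in fat, with a summed level of 1.76 to 5.05 CPM in muscle and 113 to 492 CPM in the fat of 7 mice (CPM of library totals). The fat of mouse 138 held 2675 CPM, a rise that the members of the list did not share alike. Upk1b had 11343 counts over the 8 fat libraries and 1764 without mouse 138, and Muc16 had 8178 and 7481. Wt1, a transcription factor of mesothelium and visceral fat precursors, had 0 counts in the 8 muscle libraries. In the 8 fat libraries it had 3305, and 2969 without mouse 138. Against a floor of 3 counts over the group it was at least 1310-fold higher in fat, per total count. TMM factors were not applied to this ratio and would lower it. Ucp1, the uncoupling protein of brown fat, was too low in both tissues to be tested. Of 16 tested genes linked to heat production, 8 were higher in muscle and 6 in fat, the latter including Cidea, a droplet protein of brown fat (log2 difference -2.69, SE 0.50).

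The fat library of mouse 138 stood apart. Its summed level of smooth muscle genes was 24530 CPM, against 1022 to 1700 CPM in the other 7 fat libraries. It also held 1628 CPM of bladder epithelium genes (5.29 to 13.7 CPM in the others), 878 CPM of reproductive tract epithelium genes (6.89 to 14.2) and 185 CPM of mammary epithelium genes (0.0625 to 1.23). Its adipocyte genes summed to 8307 CPM, against 24543 to 34436 CPM. Members of the epithelial lists were not all seen. In the mammary list Csn2, Csn1s1 and Wap had no count in any fat library, nor had Pax8 of the reproductive tract list. The bladder and mammary lists share Krt5, and the mesothelial and reproductive tract lists share Krt7. The first principal component of log CPM took 85.7% of the variance and parted the tissues. The second took 5.3%, with this library at 111.65 and the other 15 between -21.6 and 1.84. In bulk tissue, fewer cells of a type and less RNA per cell cannot be told apart, and this holds for every gene below.

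Most genes differed between the tissues. At an adjusted p under 0.05, 5770 genes (37.0% of those tested) were higher in muscle and 6627 (42.5%) higher in fat. Against a 2-fold difference, 2344 (15.0%) passed as higher in muscle and 3166 (20.3%) as higher in fat. The 8 muscle values lay wholly above the 8 fat values for 4096 genes (26.3%), and wholly below for 4444 (28.5%). These shares are the background for every count of listed genes below. Of the genes tested 3196 were not called, and 915 (5.87%) had a 95% interval that lay within 0.32 of 0 on the log2 scale. The paired fit without mouse 138 called 6048 genes higher in muscle and 6900 higher in fat.

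The split of calls rests on how the libraries are scaled. A few genes took much of a muscle library: the 10 most abundant genes held 43.9 ± 0.833% of counts in muscle and 18.1 ± 4.15% in fat (SD, n = 8 each; two-sided exact paired permutation test, p = 0.00781, the smallest that 256 sign patterns allow). Titin, Ttn, the giant spring of the sarcomere, alone held 22.7 ± 0.901% of muscle counts, and the desaturase gene Scd1 held 5.10 ± 2.20% of fat counts. Only 19.9 ± 2.10 genes covered 50% of the counts in muscle, against 539 ± 215 in fat. At least 1 CPM of library totals was reached by 12686 ± 154 genes in muscle and 15348 ± 527 in fat (p = 0.00781 for each, by the same exact permutation test). Of nuclear ribosomal RNA 1 gene passed the filter, and it held 2.80 and 1.98% of counts in the muscle of mice 131 and 11, and 0.00144 to 0.00556% in the other 14 libraries. The mitochondrial ribosomal RNA mt-Rnr2 held 2.61 ± 1.32% in muscle and 2.85 ± 1.19% in fat. TMM factors were 0.62 to 0.69 in muscle and 1.34 to 1.87 in fat. Under TMM the median log2 difference of all genes was -0.10. Without factors it was -1.27, and 1847 genes were then called higher in muscle and 12310 higher in fat. Every log2 difference moved by about -1.18, so a gene less than that above 0 changed its direction. The RLE and upper quartile scalings gave 5970 and 5316 genes higher in muscle, and 6429 and 7140 higher in fat.

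**Figure D2:**
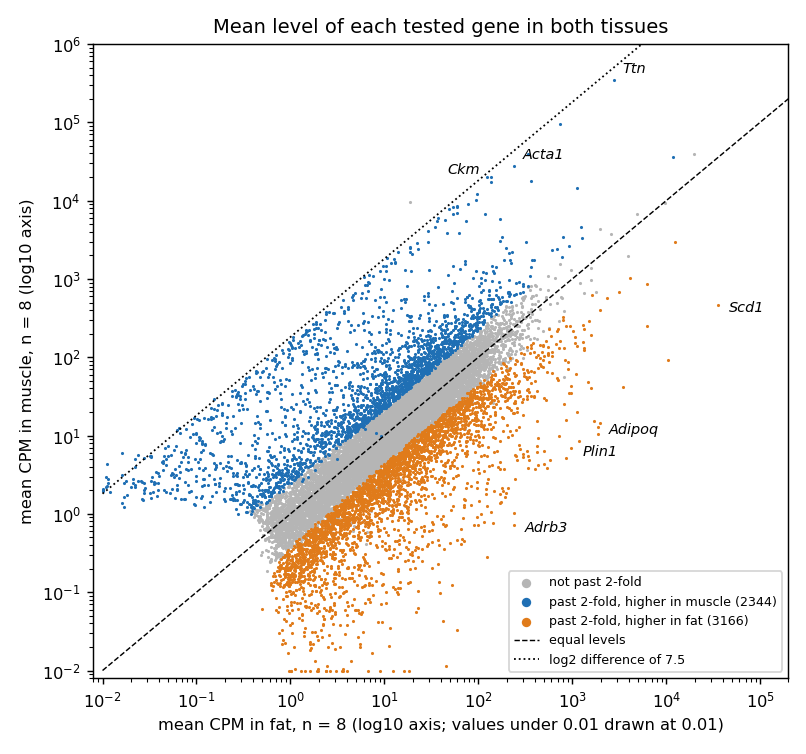
Mean CPM in fat (x axis) and in muscle (y axis) of the genes tested, both on log10 axes, 1 point per gene. Blue points passed the 2-fold test as higher in muscle (2344 genes), orange points as higher in fat (3166), and grey points did not pass. The dashed line marks equal levels and the dotted line a log2 difference of 7.5, under which the muscle genes of at least 100 CPM crowd.

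Of 10800 tested genes with a promoter entry, 1300 (12%) held the E-box and 303 (2.81%) the MEF2-type motif. Among the 565 promoters of genes past the 2-fold test with at least 100 CPM in muscle, 92 (16.3%) held the E-box and 29 (5.13%) the MEF2-type motif. Among the 289 such promoters of fat genes, 45 (15.6%) held the E-box and 5 (1.73%) the MEF2-type motif. The E-box was found in the promoter of Adipoq as in those of Ckm and Acta1. A match gives letters only, and binding was not measured.

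The contractile apparatus was higher in muscle without exception. All 18 thick filament and M-band genes and all 34 thin filament and Z-disc genes passed the 2-fold test, with median differences of 7.34 and 7.25, against -0.10 for all genes tested. Ttn ranged over 313067 to 386415 CPM in muscle (median 343908) and 520 to 8184 CPM in fat (median 1939). Neb, the nebulin that sets thin filament length, ranged over 37084 to 47137 CPM in muscle (median 38894) and 72.5 to 989 CPM in fat (median 240). Myh4 ranged over 70946 to 107051 CPM in muscle (median 99477) and 138 to 2112 CPM in fat (median 543). No fat library came near a muscle library for these 3 genes, and in all 3 the highest fat value was that of mouse 139. The smallest differences in both lists were those of Tpm3 (log2 difference 2.28, SE 0.17), a tropomyosin of slow fibres that is also made outside muscle, and Myom3 (log2 difference 4.63, SE 0.23), an M-band protein.

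The proteins that release and take back calcium followed the same pattern. All 28 genes of excitation-contraction coupling were higher in muscle, and 27 of them passed the 2-fold test. The calcium pump of fast fibres, Atp2a1, ranged over 13348 to 20736 CPM in muscle (median 17186) and 31.2 to 302 CPM in fat (median 107). The release channel Ryr1 ranged over 5493 to 7993 CPM in muscle (median 6840) and 11.7 to 156 CPM in fat (median 43.2). The calcium buffer parvalbumin, Pvalb, ranged over 4747 to 7269 CPM in muscle (median 6317) and 6.84 to 80.7 CPM in fat (median 31.7). None of the 3 overlapped between the tissues, and their differences were 7.33, 7.30 and 7.69. Phospholamban, Pln, the pump regulator of slow and cardiac muscle, was low in both tissues (log2 difference 1.29, SE 0.32, adjusted p = 0.00414 in edgeR) and did not pass the 2-fold test. Without scaling factors Pln was at 0.14 and not called. The slow-fibre calsequestrin Casq2 (log2 difference 5.39, SE 0.55) and junctophilin Jph2 (6.03) were raised in the fat of mouse 138, and differed by 5.95 and 6.42 without that mouse.

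At the neuromuscular junction, 10 of 12 genes tested were higher in muscle. The acetylcholine receptor subunits Chrna1 and Chrne, at 16 ± 1.66 and 9.56 ± 0.691 CPM in muscle, differed by 7.14 and 6.71, and the receptor kinase Musk by 5.99 (SE 0.30). The 2 genes higher in fat were those of broader tissues: utrophin, Utrn (219 ± 13.6 CPM in muscle and 685 ± 125 in fat; difference -1.62), and agrin, Agrn (-0.92). In the dystrophin complex, which ties the cytoskeleton to laminin, 9 genes were higher in muscle and 5 in fat. Dystrophin, Dmd, differed by 4.25, and the striated-muscle sarcoglycan Sgca by 6.71. The broadly made sarcoglycan Sgce ran the other way (log2 difference -2.17, SE 0.08).

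Regulators of the muscle programme were mostly higher in muscle. Of 18 tested, 16 were higher in muscle, 1 was higher in fat and 1 was not called. Myf6, the MyoD-family factor of mature fibres, ranged over 41.7 to 69.8 CPM in muscle (median 59.3) and 0 to 0.698 CPM in fat (median 0.442). Myod1 and Myog, its relatives that drive differentiation, were at 7.03 ± 0.992 and 5.13 ± 0.755 CPM in muscle and differed by 7.19 (SE 0.74; 8.50 without mouse 139) and 7.23 (SE 0.76). Among the MEF2 factors, Mef2c differed by 4.57, Mef2d by 1.69 and Mef2a by 1.23, the last of these 0.06 without scaling factors. The exception, Myocd, is the coactivator of smooth muscle genes. It was at 0.621 CPM (median) in muscle and 1.48 CPM in fat, with 43.6 CPM in the fat of mouse 138, and differed by -1.77, or -0.96 without that mouse. Its call (edgeR adjusted p = 0.0456) was lost under RLE scaling (0.05), with no filter on low counts (0.105), in the control mice alone (0.202), and without mouse 137 (0.059), 11 (0.0581), 958 (0.0728) or 29 (0.0825).

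The size of the muscle differences had an upper edge. Of 716 genes with at least 100 CPM in muscle that passed the 2-fold test, 91 differed by 7 or more, 16 by 7.5 or more and 0 by 8 or more. The largest was mitochondrial creatine kinase, Ckmt2, at 7.72 (SE 0.33), and the 20th was at 7.49. Genes with unlike roles shared this edge: the oxygen store myoglobin, Mb (7.56), the glycolytic enzyme Pgam2 (7.69), the troponins Tnni2 (7.68) and Tnnc2 (7.64), the titin cap Tcap (7.66) and Asb11, a substrate adaptor of a ubiquitin ligase (7.54). The percent of the muscle level that fat held was read over the 50 muscle genes with the largest differences, a choice that limits its spread. The median was 0.156% in mouse 960 (quartiles 0.133 and 0.172), 0.214% in mouse 137, 0.481% in mouse 11, 0.485% in mouse 131, 0.570% in mouse 958, 0.822% in mouse 138, 1.12% in mouse 29 and 1.73% in mouse 139 (quartiles 1.45 and 2.01). The medians differed 11.1-fold between mice. Single genes ran from 0.0256 to 0.369% in mouse 137. The source of these reads in fat libraries was not tested, and the order of genes near the edge is not read as a ranking.

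**Figure D3:**
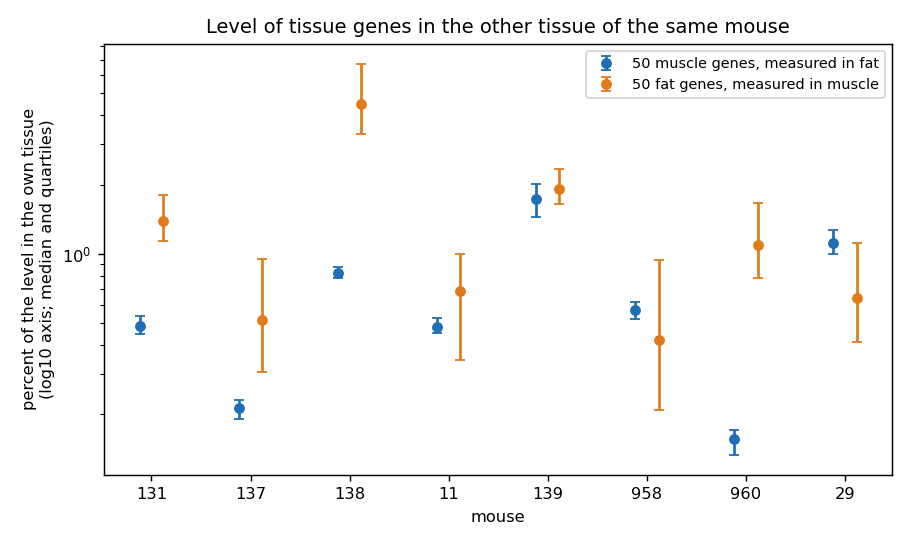
Level in the other tissue as a percent of the level in the own tissue of the same mouse (log10 axis), for the 50 muscle genes and the 50 fat genes with the largest differences among those of at least 100 CPM. Points are medians over genes and bars the quartiles, 1 per mouse. Muscle genes in fat lie between 0.156 and 1.73% with short bars, and fat genes in muscle between 0.423 and 4.50% with longer ones.

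The fat genes reached further and crowded less. Of 388 genes with at least 100 CPM in fat that passed the 2-fold test, 12 differed by 7 or more and 1 by more than 8. That gene was Adrb3, the beta-adrenergic receptor through which catecholamines start lipolysis, which ranged over 0.252 to 2.36 CPM in muscle (median 0.497) and 40.7 to 333 CPM in fat (median 269) and differed by -8.43 (SE 0.37; edgeR adjusted p = 6.69e-09). Over the 50 fat genes with the largest differences, muscle held a median of 0.423 to 1.92% of the fat level in 7 mice and 4.50% in mouse 138, whose fat library was low in adipocyte genes. Of the genes with at least 1 CPM in all 8 libraries of a tissue, 5 muscle genes and 33 fat genes had at most 3 counts over the 8 libraries of the other. No muscle gene and 5 fat genes had 0.

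Hormones and secreted proteins of fat were among the largest differences. In the list of fat-secreted factors 14 of 17 tested genes were higher in fat, with a median of -4.06. Leptin, Lep, which reports fat stores to the brain, ranged over 0.481 to 10.1 CPM in muscle (median 2.93) and 66 to 1240 CPM in fat (median 486). Resistin, Retn, ranged over 1.26 to 16.8 CPM in muscle (median 3.29) and 114 to 1109 CPM in fat (median 959). Complement factor D, Cfd, or adipsin, ranged over 12.7 to 98.6 CPM in muscle (median 37.3) and 956 to 6096 CPM in fat (median 3910). The differences were -7.20, -7.60 and -6.46, and the lowest fat values of Lep, Retn and Cfd were those of mouse 138. The retinol carrier Rbp4 differed by -6.93. Only 2 genes of the list ran the other way: Nampt, an enzyme of NAD synthesis that is also secreted (276 ± 21.7 CPM in muscle and 123 ± 17.6 in fat; difference 1.17), and the WNT inhibitor Sfrp5 (1.05). Without scaling factors Nampt was at -0.00 and Sfrp5 at -0.12.

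Lipid droplet genes were mostly higher in fat. Of 24 tested, 19 were higher in fat, 3 higher in muscle and 2 not called. Cidec, which fuses droplets into 1, ranged over 3.57 to 28.5 CPM in muscle (median 8.37) and 412 to 2742 CPM in fat (median 1972) and differed by -7.69. The lipases of the 3 steps of lipolysis were all higher in fat, with Pnpla2 at -2.58, Lipe at -4.64 and Mgll at -3.69. Those higher in muscle included Plin5, the perilipin that sits between droplets and mitochondria (log2 difference 2.75, SE 0.23), and Fitm1, a droplet-forming protein of muscle (7.22). The beta receptor Adrb1 was higher in fat (-4.29; -4.92 without mouse 29), as was Adrb3. Plin4, often used as a fat marker, was high in both tissues (689 ± 117 CPM in muscle and 1809 ± 556 in fat, difference -1.34). Its ranges overlapped only through the fat of mouse 138, at 614 CPM against 1670 to 2569 CPM in the other fat libraries.

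Genes of fatty acid synthesis were among the most abundant in fat. Of 27 genes of fatty acid and triglyceride synthesis, 22 were higher in fat, all of which passed the 2-fold test, and the list summed to 83584 to 129597 CPM of library totals in the fat of 7 mice and 1995 to 2999 in muscle. In the fat of mouse 138 it summed to 16542 CPM. Scd1, which puts the double bond into stearate, ranged over 112 to 1209 CPM in muscle (median 278) and 4621 to 62328 CPM in fat (median 35832). Fatty acid synthase, Fasn, ranged over 35.1 to 202 CPM in muscle (median 74.9) and 901 to 14322 CPM in fat (median 10913). Phosphoenolpyruvate carboxykinase, Pck1, which serves glycerol phosphate synthesis in fat, ranged over 3.57 to 37 CPM in muscle (median 10.3) and 767 to 2553 CPM in fat (median 2015). The lowest fat values of all 3 were those of mouse 138, and still lay above all muscle values. Acly, which supplies acetyl-CoA, differed by -5.06, the citrate carrier Slc25a1 by -6.08 and the elongase Elovl6 by -6.09. The list held 2 genes higher in muscle, Acacb (log2 difference 1.52, SE 0.21) and Lpin1 (0.75). Without scaling factors they were at 0.34 and -0.41, and neither was called. Gpam, the first acyltransferase of triglyceride synthesis, did not differ beyond its error (log2 difference -0.09, SE 0.16; 95% interval -0.44 to 0.27), nor did Gpd1 (95% interval -0.84 to 0.56). Without mouse 138 both were called higher in fat (Gpam -0.23, edgeR adjusted p = 0.0242, and Gpd1 -0.43, edgeR adjusted p = 0.00701), and 24 genes of the list were.

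Uptake of fatty acids was also led by fat, with 13 of 15 genes. Lipoprotein lipase, Lpl, was at 852 ± 200 CPM in muscle and 6229 ± 2381 in fat (difference -2.76), and the transporter Cd36 at 684 ± 124 and 3129 ± 1015 (-2.12). For both, the fat of mouse 138 reached down into the muscle range. Angptl4, an inhibitor of lipoprotein lipase, differed by -4.43. Its relative Angptl8 had 2 counts in muscle and 1024 in fat, a ratio of 609 per total count (95% counting interval 168 to 5032). Ffar4, a receptor for long-chain fatty acids, had 3 counts in muscle and 2092 in fat, a ratio of 829 (283 to 4023). Counting intervals treat the pooled reads of a tissue as the unit and leave out the spread between mice. Vldlr, a lipoprotein receptor, was higher in muscle (log2 difference 1.97, SE 0.10).

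Regulators of fat cells fell on both sides, with 10 of 20 higher in fat and 7 in muscle. These shares were near the 42.5% and 37.0% of all genes tested. Pparg, the master receptor of adipocytes, ranged over 5.12 to 9.53 CPM in muscle (median 6) and 81.8 to 195 CPM in fat (median 164). Its partner Cebpa ranged over 3.91 to 11 CPM in muscle (median 6.18) and 84 to 407 CPM in fat (median 364). Neither overlapped between the tissues, with differences of -4.62 and -5.66. Their early partners Cebpb and Cebpd were higher in muscle (1.75 and 1.10; 0.57 and -0.08 without scaling factors). The related receptor Ppara, which drives fat oxidation, was also higher in muscle (log2 difference 1.89, SE 0.19), while Ppard was not called (log2 difference 0.11, SE 0.12). Srebf1, which drives lipid synthesis genes, was higher in fat (log2 difference -1.95, SE 0.11), and its partner in sugar sensing, Mlxipl, was not called (log2 difference 0.40, SE 0.26).

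**Figure D4:**
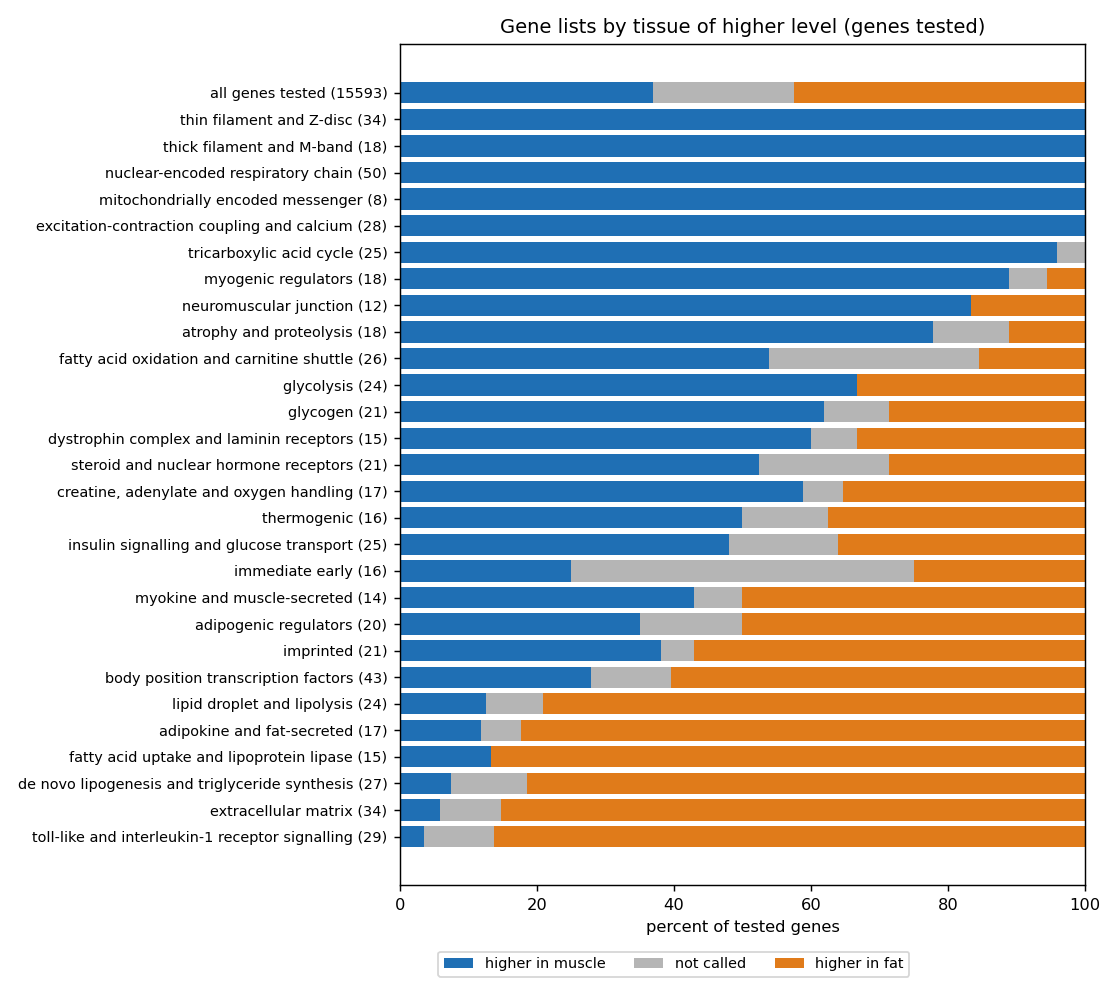
Share of the tested members of 28 gene lists that were higher in muscle, not called or higher in fat (percent, edgeR adjusted p under 0.05), with the number tested beside each bar. The top bar is all 15593 genes, of which 37.0% were higher in muscle and 42.5% higher in fat.

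Genes of mitochondrial respiration were higher in muscle, by smaller amounts than those of the contractile apparatus. All 50 nuclear genes of the respiratory chain were higher, with a median of 1.73, and 24 of 25 genes of the citrate cycle, with a median of 1.51. The synthase subunit Atp5b was at 2645 ± 230 CPM in muscle and 923 ± 191 in fat (1.55), and Ndufs1 of complex I at 548 ± 55 and 130 ± 22.3 (2.09). The gene not called was Pdhb (log2 difference 0.37, SE 0.22). The 2 aspartate aminotransferases of the malate-aspartate shuttle had larger differences, with Got1 at 5.49 and Got2 at 3.94. Without scaling factors 38 of the 50 respiratory genes and 14 of the 25 cycle genes were called higher in muscle, with medians of 0.55 and 0.33.

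Messengers of the mitochondrial genome took 3.19 ± 0.324% of counts in muscle and 2.46 ± 0.563% in fat (SD, n = 8; two-sided exact paired permutation p = 0.00781). All 8 that could be tested were higher in muscle, from 0.83 for mt-Nd5 to 1.96 for mt-Nd1, and 1 was called higher in muscle without scaling factors. For mt-Nd5 the fat of mouse 960 held 1556 CPM against 883 CPM in its muscle, and its call (edgeR adjusted p = 0.0174) was lost without the pairing (0.0609) and in the knockouts alone (0.326). Of the 13, mt-Co2, mt-Co3, mt-Atp6, mt-Atp8 and mt-Nd4l had at most 14 counts in any library, while mt-Co1 had 3516571 over the muscle libraries. Why these 5 were near 0 was not tested, and they were left out. Regulators of mitochondria were higher in muscle as well: the coactivator Ppargc1a ranged over 70.1 to 127 CPM in muscle (median 86.7) and 4.06 to 7.56 CPM in fat (median 6.12), with a difference of 3.87, and the orphan receptors Esrrg and Esrra differed by 6.21 and 1.90.

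Oxidation of fatty acids was less even. Of 26 genes, 14 were higher in muscle, 4 in fat and 8 were not called, with a median of 0.55. Without mouse 138, 15 were higher in muscle and 9 in fat, with a median of 0.42. Without scaling factors the median was -0.63, with 5 called higher in muscle and 15 in fat, so the direction of this list as a whole rests on the scaling. The dehydrogenase Acadvl (log2 difference 1.61, SE 0.11) and the trifunctional subunit Hadha (log2 difference 1.17, SE 0.12) were higher in muscle, and the activating enzyme Acsl1 in fat (log2 difference -2.02, SE 0.29). The muscle form Acsl6 differed by 5.91.

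Many proteins came in families of related members. Of 48 families the most abundant member per kilobase of exon differed between the tissues in 26 and was the same in 22. In cytochrome c oxidase, the last complex of respiration, Cox6a2 and Cox6a1 differed by 7.49 and -2.99, and Cox8b and Cox8a by 4.88 and -2.92. Per kilobase of exon, Cox6a2 made up 97.4 ± 0.25% of its pair in muscle and 3.1 ± 2.46% in fat (SD, n = 8), and Cox8b 95.4 ± 0.403% and 9.43 ± 5.42%. Cox7a1 made up 76.5 ± 0.781% of its pair in muscle and 8.15 ± 4.92% in fat, where Cox7a2, itself a little higher in muscle (0.80), took the rest. Subunit 4 did not switch, and Cox4i1 made up 99.5 ± 0.143% and 99.3 ± 0.153%. Shares do not depend on the scaling factors. In fat, the shares of muscle members here and below include the muscle-gene reads described above, whose source was not tested. Those reads differed 11.1-fold between mice. The main member in fat of families such as those of Ckm, Atp2a1 and Ryr1 is therefore not read as the form that fat cells use.

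**Figure D5:**
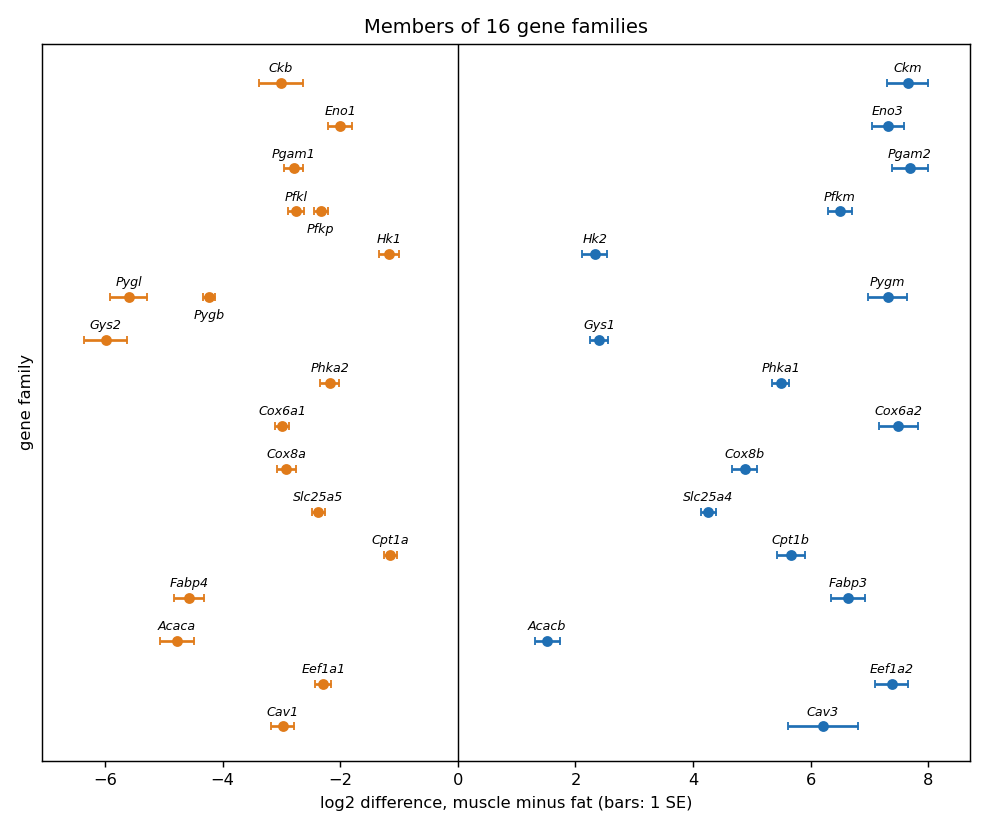
Log2 difference, muscle minus fat, of chosen members of 16 gene families, with bars of 1 SE. Blue points are called higher in muscle and orange points higher in fat. In each family shown at least 1 member lies on either side of 0, as with Ckm at 7.65 and Ckb at -3.01. The families were chosen for this, and others with members on 1 side, such as Ldha and Ldhb, are not drawn.

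Glycolysis genes fell on both sides. Of 24 genes, 16 were higher in muscle and 8 in fat. The muscle forms Eno3, Pgam2 and Pfkm differed by 7.31, 7.69 and 6.50, and the common forms Eno1, Pgam1 and Pfkl by -2.0, -2.79 and -2.75. Pfkm made up 99.7 ± 0.0339% of the 3 phosphofructokinases in muscle and 40.3 ± 12.1% in fat. Pgam2 made up 99.9 ± 0.0207% of its pair in muscle and 47.3 ± 19.6% in fat. Of the enolases in fat, Eno3 made up 48 ± 19.2% and Eno1 49.4 ± 19.3%. The fat shares of Pfkm, Pgam2 and Eno3 include the muscle-gene reads whose source was not tested. Enzymes with 1 main form were higher in muscle, with aldolase Aldoa at 3.79 and pyruvate kinase Pkm at 3.21. Of the hexokinases, Hk2, the insulin-responsive one, differed by 2.33 and Hk1 by -1.17, and Hk2 was the main form in both tissues (98.3 ± 0.282% in muscle and 79.5 ± 15.3% in fat). Of the lactate carriers, the exporter Slc16a3 differed by 6.39. Ldha and Ldhb were both higher in muscle (2.20 and 2.58), and Ldha made up 82.8 ± 4.65% of the pair in muscle and 84 ± 15.3% in fat.

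Glycogen enzymes also differed in form. Muscle phosphorylase, Pygm, ranged over 5637 to 7783 CPM in muscle (median 6815) and 14.4 to 118 CPM in fat (median 42.1). The brain form Pygb ranged over 9.13 to 15.5 CPM in muscle (median 11.5) and 178 to 299 CPM in fat (median 206). The liver form Pygl ranged over 3.19 to 12.3 CPM in muscle (median 5.35) and 46.3 to 410 CPM in fat (median 325). Pygm was higher in muscle and the other two in fat, with no overlap. Pygm made up 99.8 ± 0.0439% of the 3 in muscle, and in fat Pygb and Pygl took 43.8 ± 11.5% and 40.6 ± 14.7%. The muscle synthase Gys1 differed by 2.40 and the liver synthase Gys2 by -5.99, and Gys2 reached 26.4 ± 7.78% of the pair in fat. Phka1 and Phka2, regulatory subunits of phosphorylase kinase, differed by 5.49 and -2.18. The glycogen-targeting phosphatase subunit of muscle, Ppp1r3a, ranged over 1403 to 1841 CPM in muscle (median 1590) and 2.89 to 32.9 CPM in fat (median 9.62), while Ppp1r3b, the liver one, was higher in fat (log2 difference -3.46, SE 0.20). The promoters of Ppp1r3a and Phka1 printed above hold both motifs.

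Genes that buffer ATP and oxygen also divided, with 10 of 17 higher in muscle and 6 in fat. Ckb, the brain creatine kinase, was at 3.49 ± 0.844 CPM in muscle and 42.8 ± 59.4 in fat (log2 difference -3.01, SE 0.38), with a difference of -2.59 without mouse 138. Ckm still made up 74.4 ± 15.4% of the cytosolic kinases in the fat libraries, a share that includes the muscle-gene reads whose source was not tested. Adenylate kinase Ak1 differed by 6.13. AMP deaminase Ampd1 differed by 7.5, Ampd2 by -1.13 and Ampd3 not beyond its error (95% interval -0.18 to 0.23). The energy sensor AMPK changed its catalytic subunit, with Prkaa2 at 90.1 ± 0.814% of the pair in muscle and 20.3 ± 9.79% in fat, and its regulatory subunit Prkag3 differed by 5.51. The ADP/ATP carrier Slc25a4 was 99 ± 0.141% of its pair in muscle and 50.3 ± 5.69% in fat.

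Lipid enzymes changed form too. Acacb, whose malonyl-CoA restrains fat oxidation at the mitochondrial surface, made up 95 ± 1.28% of the carboxylases in muscle, and Acaca, which feeds fatty acid synthesis, 78.8 ± 8.13% in fat. The carnitine palmitoyltransferase that this product inhibits was Cpt1b for 76.2 ± 2.63% in muscle and Cpt1a for 87.7 ± 2.02% in fat. Of the fatty acid binding proteins, Fabp3 made up 71 ± 6.93% in muscle and Fabp4 97.9 ± 0.868% in fat, and Fabp4 still made up 28.1 ± 6.69% in muscle. Uncoupling proteins parted into Ucp3 (3.56) and Ucp2 (-2.29). Of the diacylglycerol acyltransferases, Dgat2 made up 86.4 ± 3.92% in muscle and 85.9 ± 5.32% in fat, and both were higher in fat (-3.97 and -4.0).

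The division reached general cell functions. Elongation factor Eef1a2, found in muscle and neurons, made up 76.6 ± 2.43% of its pair in muscle and 0.475 ± 0.361% in fat, where Eef1a1 took the rest. The striated-muscle ribosomal protein Rpl3l made up 92.5 ± 2.2% of its pair with Rpl3 in muscle and 2.98 ± 2.29% in fat. Cavin4 and Cav3, the muscle members of the caveolar coat, differed by 6.37 and 6.21, and Cavin1 and Cav1 by -2.25 and -2.98. Without mouse 138, Cav3 differed by 7.28. Cav1 was the main caveolin in both tissues (59.2 ± 2.45% in muscle and 81.6 ± 0.646% in fat). The crosslinker Actn3 differed by 7.51 and Actn4 by -2.36. Filamin Flnc differed by 4.83 and Flna by -2.37. Of Eef1a1 38.9% of the 51-base stretches also occur in other genes, of Slc25a5 33.0%, of Pgam1 36.1%, of Rpl3 34.9%, of Acaca 30.3%, of Eno1 25.9% and of Fabp3 29.0%, most of them in pseudogenes. Counts of these genes are uncertain where such reads were dropped or divided. Of Cpt1b 78.5% are shared with a read-through gene at the same locus, so its level is the least certain of these.

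Genes of insulin signalling were divided between the tissues. Of 25 genes 12 were higher in muscle and 9 in fat, not far from the 37.0% and 42.5% of all genes tested. The median was 0.35, and -0.83 without scaling factors. The insulin-sensitive transporter Slc2a4 ranged over 421 to 533 CPM in muscle (median 473) and 59.3 to 167 CPM in fat (median 150), with a difference of 1.82, and only in the fat of mouse 138 did it fall under 100 CPM. The receptor Insr and its substrate Irs1 did not differ beyond their error (95% intervals -0.28 to 0.22 and -0.04 to 0.73), although Irs1 was called by DESeq2 (adjusted p = 0.0468) and in the controls alone (edgeR, 0.0261). Irs3, a substrate of rodent adipocytes, differed by -5.40, and Trarg1, which controls transporter traffic in fat cells, by -5.64. Of the Rab regulators that release the transporter, Tbc1d1 differed by 2.80 and Tbc1d4 by 0.87 (-0.30 without scaling factors).

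Genes of muscle wasting were read because the mice had just been confined, although no active group was sequenced. Of 18 such genes 14 were higher in muscle. The ubiquitin ligase Trim63 ranged over 294 to 549 CPM in muscle (median 362) and 0.435 to 5.8 CPM in fat (median 2.25). The ligase Fbxo32 ranged over 641 to 1311 CPM in muscle (median 835) and 22.3 to 192 CPM in fat (median 37.7). Their differences were 7.42 and 4.37, and neither gene overlapped between the tissues. Myostatin, Mstn, which limits muscle growth, differed by 6.95. Of 14 factors that muscle can secrete, 6 were higher in muscle and 7 in fat, shares near the 37.0% and 42.5% of all genes tested. Among the former were Fndc5, the precursor of irisin, at 5.91 and Ostn, or musclin, at 7.21. Igf1 at -3.07 and Sparc at -2.96 were on the side of fat.

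Of 21 nuclear receptors and related genes 11 were higher in muscle and 6 in fat, and the share called was near the 79.5% of all genes tested. The oestrogen receptor Esr1 was a little higher in fat (log2 difference -0.60, SE 0.14), and the glucocorticoid receptor Nr3c1 was not called (95% interval -0.15 to 0.47). The enzyme that renews cortisol's rodent counterpart, Hsd11b1, was higher in fat (log2 difference -2.55, SE 0.19). Nr4a1 (2.54) was higher in muscle. Of 16 immediate early genes, which respond within minutes of a stimulus, 4 were higher in muscle, 4 in fat and 8 not called. Jun was at 1.26 (0.09 and not called without scaling factors) and Zfp36 at -1.01. The thyrotropin receptor Tshr, outside this list, was among the 15 fat genes with the largest differences, with 0.168 to 2.36 CPM in muscle (median 0.429) and 17.4 to 188 CPM in fat (median 160).

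Transcription factors that mark body position set the limb muscle and the visceral fat apart. Of 43 tested, 12 were higher in muscle and 26 in fat. Tbx15, a factor of limb muscle and some fat depots, ranged over 201 to 253 CPM in muscle (median 245) and 0.514 to 5.27 CPM in fat (median 1.59) and differed by 7.09. HOX genes are numbered in 13 groups along their clusters, which are used from head to tail of the embryo. Of 17 tested genes of groups 1 to 7, 13 were higher in fat and 1, Hoxa4 (1.15), in muscle. Of 12 tested genes of groups 8 to 13, 6 were higher in muscle and 4 in fat. Among the former were Hoxc10 (2.07), Hoxc11 (3.02), Hoxd8 (1.77) and Hoxd10 (1.87), and among the latter Hoxc8 (-2.75) and Hoxd11 (-4.36; -5.31 without mouse 29). En1 (log2 difference 4.33, SE 0.32) was higher in muscle. Gata6, a factor of visceral mesoderm, ranged over 0.319 to 1.17 CPM in muscle (median 0.58) and 16.7 to 27.3 CPM in fat (median 20.9), and Meis1 and Meis2, partners of HOX proteins, differed by -2.02 and -3.53. Tcf21, a factor of visceral stroma, had 0 counts in muscle and 760 in fat. Per total count, without TMM factors, this was at least 301-fold more against the floor of 3 counts. Without mouse 138 the fat count of Tcf21 was 415, at least 160-fold more per total count. The limb factor Tbx4 differed by 3.81, and by 4.90 without mouse 138. Without the pairing it differed by 1.62 and was not called (edgeR adjusted p = 0.103).

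Imprinted genes, expressed from 1 parental copy, fell on both sides. The non-coding RNA H19 ranged over 1038 to 1883 CPM in muscle (median 1447) and 2.97 to 24.1 CPM in fat (median 9.63) and differed by 7.38, and Asb4 by 4.39. Neuronatin, Nnat, ranged over 0 to 3.27 CPM in muscle (median 0.71) and 57.1 to 349 CPM in fat (median 264) and differed by -7.87, with Plagl1 at -4.60, Mest, which tracks fat expansion, at -3.38, and Peg10 at -2.79. Of 21 tested 8 were higher in muscle and 12 in fat, where 37.0% and 42.5% of all genes tested were.

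Stromal and immune cell genes were mostly higher in fat. All 13 macrophage genes were, with a summed level of 666 to 1405 CPM of library totals in fat and 68 to 135 in muscle. The receptor Csf1r ranged over 12.7 to 24.6 CPM in muscle (median 19.6) and 57.1 to 113 CPM in fat (median 93). The complement gene C1qa ranged over 5.46 to 16.7 CPM in muscle (median 10.9) and 31.7 to 80.5 CPM in fat (median 59.6). The haemoglobin scavenger Cd163 ranged over 12.7 to 23.7 CPM in muscle (median 17.5) and 58.8 to 122 CPM in fat (median 97.3). None of the 3 overlapped between the tissues. Of 12 fibroblast genes 10 were higher in fat and 0 in muscle, with Pdgfra at -0.57 and Gsn at -1.98. Matrix genes were higher in fat in 29 of 34 cases, such as Col3a1 (-3.04), Col6a1 (-2.46) and Col15a1 (-3.45). Those higher in muscle were Col22a1, a collagen of the muscle-tendon junction (log2 difference 6.71, SE 0.34), and Col12a1 (log2 difference 1.46, SE 0.48; 1.89 without mouse 138 and -0.63 without the pairing). The call of Col12a1 (edgeR adjusted p = 0.0273) was lost with no filter on low counts (0.0962) and without mouse 11 (0.063), 139 (0.0616), 958 (0.0666), 960 (0.0628) or 29 (0.0616). Endothelial genes were divided, with 2 higher in muscle, 6 in fat and 4 not called. Pecam1, of all vessels, differed by -0.05 (95% interval -0.27 to 0.16).

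Some stromal genes ran toward muscle. All 7 tendon genes did, with Thbs4 at 147 ± 12.2 CPM in muscle and 1.96 ± 2.76 in fat (6.79), and Tnmd at 6.51 (7.30 without mouse 139). Satellite cell genes were mixed: the stem cell factor Pax7 differed by 6.07 (SE 0.75; 6.80 without mouse 139) at 2.62 ± 0.721 CPM in muscle, and Vcam1, which other stroma also makes, by -2.19. Of 9 Schwann cell and nerve genes 5 were higher in muscle and 1 in fat, and without scaling factors 2 were called in each direction. The summed level of the list was higher in fat, with medians of 221 CPM of library totals there and 57.7 in muscle. Mouse 960 was the exception, with 283 in muscle and 209 in fat. Globin genes differed by 1.05 (Hbb-bs) and 1.07 (Hba-a1), and by -0.13 and -0.11 without scaling factors, so their direction rests on the scaling. The globin copies are near-identical, and their split is uncertain. Of the mast cell genes tested, Kit alone was called (-2.27), and the proteases Cpa3 and Mcpt4 had 95% intervals of -1.35 to 0.20 and -0.99 to 0.55. Without mouse 139 Cpa3 was called too (-0.84, edgeR adjusted p = 0.0328). Of 12 T and natural killer cell genes 2 passed the filter, of 10 neutrophil genes 2, of 10 B and plasma cell genes 3 and of 8 pancreatic genes 1, and all of these were higher in fat. Igkc, an antibody light chain, differed by -4.90.

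The size of the smooth muscle differences rested on mouse 138. Actg2, the enteric actin, differed by -7.54, and by -5.64 without this mouse. Cnn1 differed by -5.40 and -4.37, Acta2 by -2.23 and -1.85, and Myh11 by -1.73 and -1.31. Desmin, Des, and Synm, shared by smooth and skeletal muscle, differed by 5.52 and 4.97, and by 5.91 and 5.37 without it. Of the mesothelial genes, Muc16 had 1 count in muscle, in mouse 11, and 8178 in fat, a ratio of 9722 per total count (95% counting interval 1744 to 384028). Upk1b had 3 and 11343, a ratio of 4495 (1538 to 21798). These counting intervals also leave out the spread between mice. Without mouse 138 Upk1b had 2 counts in muscle and 1764 in fat, a ratio of 1023, which lies under its interval. Muc16 then had 1 and 7481, a ratio of 8675. Genes named for the liver were also higher in fat: Cyp2e1, which fat cells make as well, ranged over 4.19 to 28.4 CPM in muscle (median 14.5) and 436 to 2536 CPM in fat (median 1784), and the iron carrier Trf differed by -5.83.

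Toll-like and interleukin-1 receptor signalling, which uses MyD88, was read at a higher level in fat for 25 of 29 genes, with a median of -1.80. Myd88 itself, deleted in the muscle of 4 mice, ranged over 2.49 to 5.17 CPM in muscle (median 3.19) and 9.74 to 11.8 CPM in fat (median 10.7), with a difference of -1.65. In muscle it was at 3.11 to 5.17 CPM in the 4 controls and 2.49 to 3.27 CPM in the 4 knockouts, which overlap, and muscle holds cells other than fibres. Among receptors Tlr4 differed by -1.05, Tlr3 by -2.04 and Il1r1 by -1.38, and among kinases Irak4 by -1.75 and Irak2 by -2.03. The adaptor Tirap was the 1 gene higher in muscle (log2 difference 1.13, SE 0.08; -0.05 without scaling factors). The macrophage genes above, which moved with this list, had a median of -2.32, and their part in it was not tested.

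Some genes often used to scale expression differed between these tissues. Of 23 tested, 8 were higher in muscle, 11 in fat and 4 were not called, shares near the 37.0% and 42.5% of all genes tested. Gapdh ranged over 1828 to 2438 CPM in muscle (median 2258) and 141 to 354 CPM in fat (median 229). Actb ranged over 252 to 324 CPM in muscle (median 285) and 1198 to 1881 CPM in fat (median 1446). They differed by 3.29 and -2.37, so that the ratio of Gapdh to Actb, which no scaling touches, differed by 5.66 on the log2 scale. B2m differed by -3.34, Ppia by -2.15, Hprt by -1.59, Pgk1 by 2.94 and Tfrc by 2.17. The 4 not called were Tbp (95% interval -0.01 to 0.29), Rer1 (-0.02 to 0.28), Rpl32 (-0.08 to 0.49) and Rpl13a (-0.24 to 0.43). Without mouse 138, Tbp (0.18), Rpl32 (0.33) and Rpl13a (0.24) were called higher in muscle, which made 11 genes of the list higher in each tissue. Tbp and Rer1 were also called under RLE scaling, by DESeq2 and without mouse 131, and Rer1 without mouse 137. Of Gapdh 24.6% of the 51-base stretches occur elsewhere, of Pgk1 53.8%, of Rpl32 23.7% and of Rpl13a 23.8%. Without scaling factors 3 of the list were called higher in muscle and 17 higher in fat.

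The 10 genes of at least 50 CPM in both tissues whose intervals lay closest to 0 included Ddx39b, Tm9sf2, Ddx50, Srp72, Ubxn7, Btbd7, Rrp1, Ist1 and Ppp4r3a. Among them are genes of RNA export, membrane traffic, signal recognition and protein turnover. Tm9sf2 was at 107 ± 4.17 CPM in muscle and 107 ± 4.65 in fat (95% interval -0.13 to 0.12), and Ddx39b, a helicase of messenger export, at 65 ± 2.96 and 64.5 ± 2.6 (-0.10 to 0.12). These genes are level under TMM by selection, and without scaling factors all 9 had intervals that lay more than 0.32 from 0.

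No gene passed the edgeR test for a tissue difference that depends on genotype. The interaction of tissue with genotype was called for 0 of 15593 genes (smallest adjusted p = 0.733), with 1004 at an unadjusted p under 0.05. Without mouse 138 edgeR called 0 as well, with 1829 at an unadjusted p under 0.05. If no gene depended on genotype, about 1 in 20 would be under 0.05, fewer than either count. With at most 4 mice per genotype, 0 calls do not show that such dependence is absent. DESeq2 called 4 genes, Vcan, Sema3c, Actb and Actg1. Within the 4 controls 4704 genes were called higher in muscle and 5416 higher in fat, and within the 4 knockouts 6032 and 6307. The 4 controls include mouse 138, whose fat library stood apart, and its part in these calls was not separated from genotype. In the controls alone the calls of Col12a1, Esr1, Hba-a1, Hbb-bs, Lpin1, Myh11, Myocd, Plin4, Pln, Tbc1d4 and Tbx4 were lost, and in the knockouts alone those of Hbb-bs and mt-Nd5. A gene called in 1 genotype and not in the other is not thereby shown to differ between them. The spread between mice was also read. Over 6886 genes with at least 10 CPM in both tissues, the median SD of log2 CPM was 0.133 in muscle, 0.184 in fat and 0.126 in fat without mouse 138.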

How the data were processed

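RNA of red gastrocnemius and visceral fat of 8 mice was depleted of ribosomal RNA and made into stranded total RNA libraries, per the labels' protocols. The authors deposited whole-number counts per gene for 16 libraries, with the mouse number and tissue in each column name. STAR 2.7.0f, featureCounts 1.6.3, DESeq2 1.22.2 and build GRCm38 are named in the submitters' processing notes. Strand and multi-mapping settings were not given in the sources used here. Each of the 55536 gene identifiers matched a name in GENCODE M21.

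Counts were filtered with filterByExpr, scaled by TMM and fitted in edgeR 4.0.16 (R 4.3.3) by the robust quasi-likelihood test with mouse and tissue as terms. P-values were adjusted by Benjamini-Hochberg over 15593 genes and called under 0.05. A second test was run against a 2-fold difference. SE are Wald errors, and intervals are at 95%. Both libraries of a number come from the same animal, so the numbers pair the samples. Over 15593 genes the deviations of paired libraries correlated by -0.015 to 0.091. Shares were compared by a two-sided exact sign permutation test over mice. The tests were also run on simulated counts in which few genes changed, equally in both directions. Those counts lacked the composition difference between the real tissues, so that run does not bear on the scaling. CPM is the count scaled to 1000000 of the library total times its TMM factor. List sums use library totals alone. Promoters are from RefSeq, and motifs were searched on both strands. The share of 51-base stretches of a gene that occur in other genes was counted in the GENCODE transcripts.

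Genes were named by rule: the 4 markers, per direction the 15 with the largest difference past the 2-fold test with at least 100 CPM and no overlap, from each list the 3 most abundant, the extremes and those against its direction, all members of enzyme families, all reference genes, and the 10 most level genes of at least 50 CPM. Other members of the same lists and families were named after their values were seen. Some genes that the rule names are not reported here. The comparison, the 50 lists and the 50 families were chosen with earlier results of these data known. Alternatives were other scalings and filters, no pairing, each mouse left out, 1 genotype alone, non-robust estimation, a call at 0.01, DESeq2 1.42.0 and limma voom 3.58.1.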

Additional observations from a re-analysis of the deposited data

Results flagged for a closer look

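Of 124 sets of 8 values tested for a value far from the others (the CPM of each gene whose levels are given and the library values, per tissue), 33 had one. The cut used is passed by about 1 in 20 sets of normally distributed values. CPM were not transformed and the sets share libraries, so the 33 are not read against that rate. The fat library of mouse 138 held 21 of the 33. It was the lowest of the fat libraries for 18 genes, most of them of adipocytes or mitochondria. In CPM these were Adipoq at 329, Adrb3 at 40.7, Atp5b at 500, Cd36 at 673 and Cebpa at 84. Further low values were Cidec at 412, Fasn at 901, Lpl at 828, Nampt at 84, Ndufs1 at 76.7 and Plin1 at 169. The others were Plin4 at 614, Pparg at 81.8, Pygl at 46.3, Retn at 114, Slc2a4 at 59.3, Tshr at 17.4 and Utrn at 408. In the other 7 fat libraries Adipoq was 1558 to 2426 CPM and Plin1 989 to 1232 CPM. The same library was the highest for Ckb at 190, Fbxo32 at 192 and Myocd at 43.6 CPM, against 18.5 to 25.7, 22.3 to 43.4 and 0.428 to 1.88 CPM in the other 7.

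The muscle library of mouse 139 was the highest of the muscle libraries for 7 genes of fat, with Adipoq at 36.7, Adrb3 at 2.36, Cebpa at 11, Cidec at 28.5, Pparg at 9.53, Pygl at 12.3 and Retn at 16.8 CPM. The fat library of the same mouse was the highest for Myod1 at 0.285 and Thbs4 at 8.55 CPM, a muscle and a tendon gene. The muscle library of mouse 131 was the highest for Neb at 47137 and Ttn at 386415 CPM. The fat library of mouse 958 was the highest for Wt1 at 34.7 CPM, against 12.2 to 20.3 CPM in the others. The causes were not tested.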

How the results depend on the processing

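Of the alternatives run, scaling by library totals with no factors was the one that moved the counts of calls by more than 1.5 times. It gave 1847 genes higher in muscle and 12310 in fat, 976 and 8169 past 2-fold, and 333 with an interval within 0.32 of 0. It reversed 24 of the 247 named genes. Those called before were Cebpd at -0.08, Cox4i1 at -0.16, Cox7a2 at -0.38, Hadha at -0.01, Hba-a1 at -0.11, Hbb-bs at -0.13, Hoxa4 at -0.02, Lpin1 at -0.41, Nampt at -0.00, Sfrp5 at -0.12, Tbc1d4 at -0.30, Tirap at -0.05 and mt-Nd5 at -0.35. Those not called before were Ampd3 at -1.15, Irs1 at -0.83, Mlxipl at -0.76, Nr3c1 at -1.02, Pdhb at -0.80, Ppard at -1.07, Rer1 at -1.05, Rpl13a at -1.08, Rpl32 at -0.97, Sema3c at -1.10 and Tbp at -1.04. The shift is that of the scaling itself.

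List medians reversed with no factors were those of the dystrophin complex (-0.38), thermogenic genes (-0.36), fatty acid oxidation (-0.63), insulin signalling (-0.83), hormone receptors (-0.49), reference genes (-1.08), erythroid (-0.11), reproductive tract (-0.51) and brown adipocyte genes (-0.83). The median of reference genes was -0.01 with upper quartile factors and -0.06 in controls alone, that of brown adipocyte genes -0.02 in controls alone, and that of immediate early genes 0.05 without mouse 138 and 0.34 in knockouts alone. The cause was not tested.

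Without the pairing (no replicate block), 5740 genes were called higher in muscle and 6785 in fat, and Col12a1 reversed to -0.63. Leaving out each mouse in turn gave 5602 to 6048 genes higher in muscle, 6230 to 6900 in fat, 2266 to 2476 and 2946 to 3353 past 2-fold, and 726 to 1072 with an interval within 0.32 of 0. DESeq2 called 4 genes for the interaction with genotype, against 0 in edgeR. Depth limits the rarest genes most, since 3 counts over 8 libraries is the floor used.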
